A study of Mus musculus with 18 samples.

Results

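This comparison sets cells on a soft matrix with an addition labelled mito (Soft+mito) against cells on a soft matrix in a condition labelled TW (Soft-TW). Its members are 6 of the 18 libraries of the series, 3 in Soft+mito and 3 in Soft-TW, chosen by the group in their labels. The other 12 libraries, 3 in each group, are Stiff+mito, Stiff-TW, Stiff and Soft, where the last 2 are cells on each matrix with neither mito nor TW. The labels spell out neither mito nor TW, give no stiffness of either matrix, no dose and no time, and do not say whether the libraries of a group, called biosamples, were separate cultures. Each adjusted p therefore reflects the spread between libraries alone, and that spread may be technical. Comparing Soft+mito with Soft-TW asks which genes separate the 2 conditions on the same matrix, and the series title places this in a study of mitochondria that pass between cells. The source cells in both groups carry the name RAW264.7, a macrophage line of the mouse made with Abelson leukemia virus.

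Several defining markers did not match that label, while the myeloid genes Lyz2 and Cd14, given further below, were detected in both groups. Csf1r, whose product binds the colony stimulating factor of macrophages, had 0.200 ± 0.132 TPM in Soft+mito and 0.830 ± 0.234 TPM in Soft-TW (SD, n = 3 each, as for all TPM means here). TPM is the abundance per length of transcript, scaled to a common sum per library. Adgre1, which encodes the macrophage antigen F4/80, was at 0 in the 3 Soft+mito libraries and at 0.0833 ± 0.0513 TPM in Soft-TW, and Ptprc, which encodes the leukocyte antigen CD45, was at 0.04 TPM in each Soft+mito library and at 0.183 ± 0.0777 TPM in Soft-TW. Krt8 and Krt18, keratins of simple epithelia, had 724 ± 6.22 and 312 ± 7.93 TPM in Soft+mito and 528 ± 4.96 and 247 ± 4.92 TPM in Soft-TW, while Epcam, an epithelial adhesion gene, was near 0 in both. Vim, an intermediate filament gene, had 2504 ± 41.2 TPM in Soft+mito and 2965 ± 41.8 TPM in Soft-TW. The cells are therefore named here by their groups only.

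Cells adjust many genes through a few sensors. Oxygen, iron and 2-oxoglutarate let prolyl hydroxylases mark the HIF alpha subunits for destruction, and when that slows, HIF raises genes for glucose uptake, glycolysis, acid export and blood vessel growth. Immediate early genes, such as those of the Fos, Egr and Klf families, are switched on within minutes of a growth factor, calcium or stress signal without new protein synthesis. Interferon-stimulated genes answer to Stat and Irf factors and encode antiviral proteins and parts of antigen presentation.

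The 6 libraries held 16728427 to 16887244 estimated counts in Soft+mito and 16411417 to 16509621 in Soft-TW, with 11788 to 11806 and 11876 to 11904 genes at 10 counts or more. The leading axis of variation among them held 66.5% of the variance and separated the groups. Of 12245 genes tested, 7330 (59.9%) changed at an adjusted p under 0.05, 3653 (29.8%) higher and 3677 (30%) lower in Soft+mito, and 7751 genes (63.3%) had no overlap between Soft+mito and Soft-TW libraries. The median absolute log2 fold change was 0.192, so most changes were small, and 428 genes (3.5%) changed by at least 2-fold, 62 of them higher and 366 lower. Against a minimum fold of 1.2, 2140 genes changed, 749 higher and 1391 lower. The log2 fold change (Soft+mito over Soft-TW) had a median of -0.000304 over all tested genes, and its ± value is an approximate standard error. Each count of list members below stands against the same shares of all genes, 29.8% higher and 30% lower. Genes named below for the largest changes were picked only among genes without overlap, so their lack of overlap is not a separate result. A count of 0 in a library allows up to 3 counts, and that limit covers counting error only.

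HIF targets were lower in Soft+mito than in Soft-TW. Of 31 tested HIF targets outside glycolysis, 28 fell, 2 rose and 1 did not pass, beside 30% of all genes falling and 29.8% rising. Their median log2 fold change was -1.11, and 16 fell by at least 2-fold. Ero1a, the oxidase that recharges protein disulfide isomerase in the endoplasmic reticulum (gene 50527, chromosome 14, 45283087 to 45318572), had 232, 227 and 228 TPM in Soft+mito, against 1652, 1632 and 1631 TPM in Soft-TW. The groups did not overlap, with a log2 fold change of -2.86 ± 0.019, adjusted p = 3.44e-119. Ankrd37, an ankyrin repeat gene known as a HIF target (gene 654824, chromosome 8, 45996908 to 46000414), had 16.8, 17.1 and 19.7 TPM in Soft+mito, against 124, 126 and 133 TPM in Soft-TW. It fell with a log2 fold change of -2.89 ± 0.070, adjusted p = 2.00e-63. Car12, a carbonic anhydrase of the cell surface that helps to export acid (gene 76459, chromosome 9, 66712296 to 66766845), had 7.42, 6.47 and 6.69 TPM in Soft+mito, against 49.8, 46.8 and 49.1 TPM in Soft-TW, a log2 fold change of -2.84 ± 0.050, adjusted p = 2.34e-77. Every Soft-TW library lay above every Soft+mito library for the 3 genes. The fold from the fitted log2 fold change, Soft-TW over Soft+mito, was 7.24 for Ero1a, 7.40 for Ankrd37 and 7.16 for Car12.

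Soft cells, which had neither mito nor TW, stood close to Soft+mito for these genes. Ero1a had 240.3, 231 and 224 TPM in Soft, Ankrd37 had 10.96, 11.8 and 11.3 TPM in Soft and Car12 had 7.75, 7.02 and 7.85 TPM in Soft. All 28 HIF targets that fell had a fitted level in Soft nearer to Soft+mito than to Soft-TW. The same held for 8370 of all 12245 genes (68.4%) and for 295 of the 366 genes lower by at least 2-fold (80.6%). The Soft libraries give no separate test here. They share the filter, scaling and estimate of spread of the common fit, and beyond that enter only as levels.

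The HIF targets that fell covered several roles. Bnip3, a receptor on the outer mitochondrial membrane for mitophagy, had 256, 265 and 264 TPM in Soft+mito, against 686, 659 and 679 TPM in Soft-TW, a log2 fold change of -1.38 ± 0.027, adjusted p = 8.56e-35, and its relative Bnip3l had a log2 fold change of -0.64 ± 0.023. Pdk1, the kinase that shuts pyruvate dehydrogenase, had 29.8, 30.5 and 29.3 TPM in Soft+mito, against 55.8, 56.97 and 56.5 TPM in Soft-TW, with a log2 fold change of -0.94 ± 0.031. Bhlhe40, a transcriptional repressor (gene 20893, chromosome 6, 108660629 to 108666925), had 9.59, 8.83 and 8.13 TPM in Soft+mito, against 39.9, 39.6 and 40.1 TPM in Soft-TW, a log2 fold change of -2.19 ± 0.054, adjusted p = 3.45e-63. The collagen hydroxylase genes P4ha2, Plod2 and P4ha1 fell by 1.57, 1.40 and 1.11 on the log2 scale, and the carbonic anhydrase Car9 by 2.07. The prolyl hydroxylases of HIF did not move together: Egln3 and Egln1 fell by 0.93 and 0.89, and Egln2 rose by 0.29. Hif1a itself, the oxygen-labile subunit, fell by 0.44. Tfrc, the transferrin receptor, a HIF target that iron regulatory proteins also control (gene 22042, chromosome 16, 32608896 to 32632794), went the other way with 117, 114 and 109 TPM in Soft+mito, against 49.3, 49.2 and 50.5 TPM in Soft-TW, a log2 fold change of 1.17 ± 0.026, adjusted p = 5.54e-68.

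Nos2, the inducible nitric oxide synthase (gene 18126, chromosome 11, 78920787 to 78960226), stood apart by its counts. It had 0, 0 and 5 counts in the Soft+mito libraries and 171, 180 and 177 counts in the Soft-TW libraries (adjusted p = 1.88e-39), so its fold rests on 5 counts in 1 library. In TPM these were 0, 0 and 0.12 TPM in Soft+mito, against 4.14, 4.35 and 4.29 TPM in Soft-TW.

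Promoter letters were read for HIF targets because most of them moved together. ACGTG, the core of the HIF response element, was searched on both strands in windows of 300 bases, from 250 before to 50 after each RefSeq start (GRCm38.p6). It stood in a window of 19 of 24 HIF targets outside glycolysis that had one (79.2%), of 15 of 26 glycolysis genes (57.7%) and of 8 of 26 immediate early genes (30.8%), while 2839 of 9751 tested genes with a window held it (29.1%). By window, 3125 of 12459 held it (25.1%). For the lists it stood in 21 of 35 windows of HIF targets (60.0%), 19 of 43 of glycolysis (44.2%) and 8 of 35 of immediate early genes (22.9%). The motif TGACGTCA, the full cAMP response element, which does not contain ACGTG on either strand, was in 347 of 9751 genes (3.56%), 0 of 24 HIF targets and 2 of 26 immediate early genes (7.69%). A match is a description of letters and not a bound site. Genes on the HIF list were picked as known HIF targets, so its high share may follow from how the list was made. Whether HIF acted on these genes here was not tested. The windows below are shown for 4 genes that fell and for Dusp1, which rose, 5′ to 3′ on the strand of the gene, with ACGTG or its complement CACGT in capitals for the first 4 and TGACGTCA in capitals for Dusp1. The Dusp1 window also holds 2 matches of ACGTG, which overlap on the 2 strands and are left in lower case.
Ankrd37 (chr8:45999801-46000100, minus strand): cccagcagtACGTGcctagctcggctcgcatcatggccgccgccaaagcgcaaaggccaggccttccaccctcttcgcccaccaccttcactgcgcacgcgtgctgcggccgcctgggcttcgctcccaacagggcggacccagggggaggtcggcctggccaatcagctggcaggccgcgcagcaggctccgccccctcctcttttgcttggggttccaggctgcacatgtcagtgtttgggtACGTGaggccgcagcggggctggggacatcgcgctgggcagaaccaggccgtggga
Ero1a (chr14:45318523-45318822, minus strand): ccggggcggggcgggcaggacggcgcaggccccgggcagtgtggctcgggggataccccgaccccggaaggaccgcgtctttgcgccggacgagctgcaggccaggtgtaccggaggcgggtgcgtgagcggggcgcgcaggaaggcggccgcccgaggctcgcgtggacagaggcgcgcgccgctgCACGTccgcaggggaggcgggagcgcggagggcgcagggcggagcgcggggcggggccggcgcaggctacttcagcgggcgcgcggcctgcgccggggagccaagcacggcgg
Bnip3 (chr7:138909457-138909756, minus strand): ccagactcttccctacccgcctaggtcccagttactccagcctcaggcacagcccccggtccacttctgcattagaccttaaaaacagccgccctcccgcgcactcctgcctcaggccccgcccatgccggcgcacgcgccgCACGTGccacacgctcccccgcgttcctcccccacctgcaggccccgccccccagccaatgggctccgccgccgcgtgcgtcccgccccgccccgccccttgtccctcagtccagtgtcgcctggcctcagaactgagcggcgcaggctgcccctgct
Slc2a1 (chr4:119108495-119108794, plus strand): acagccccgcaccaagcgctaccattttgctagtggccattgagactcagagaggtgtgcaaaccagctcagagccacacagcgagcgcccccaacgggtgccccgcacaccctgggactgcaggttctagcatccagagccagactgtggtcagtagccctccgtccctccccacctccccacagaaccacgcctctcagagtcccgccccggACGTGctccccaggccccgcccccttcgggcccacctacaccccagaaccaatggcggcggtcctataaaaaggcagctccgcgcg
Dusp1 (chr17:26508423-26508722, minus strand): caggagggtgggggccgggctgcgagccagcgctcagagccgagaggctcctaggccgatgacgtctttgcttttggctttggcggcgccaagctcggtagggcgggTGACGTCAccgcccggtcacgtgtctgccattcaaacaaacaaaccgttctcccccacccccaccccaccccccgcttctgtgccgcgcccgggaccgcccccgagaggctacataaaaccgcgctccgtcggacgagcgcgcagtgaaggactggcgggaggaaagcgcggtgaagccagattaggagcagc
The matches began 241 and 6 bases before the start in Ankrd37, 63 before it in Ero1a and 36 before it in Slc2a1. In Bnip3 the 2 matches, 108 and 107 bases before the start, overlap on the 2 strands. The TGACGTCA match of Dusp1 lay 143 bases before the start.

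**Figure D1:**
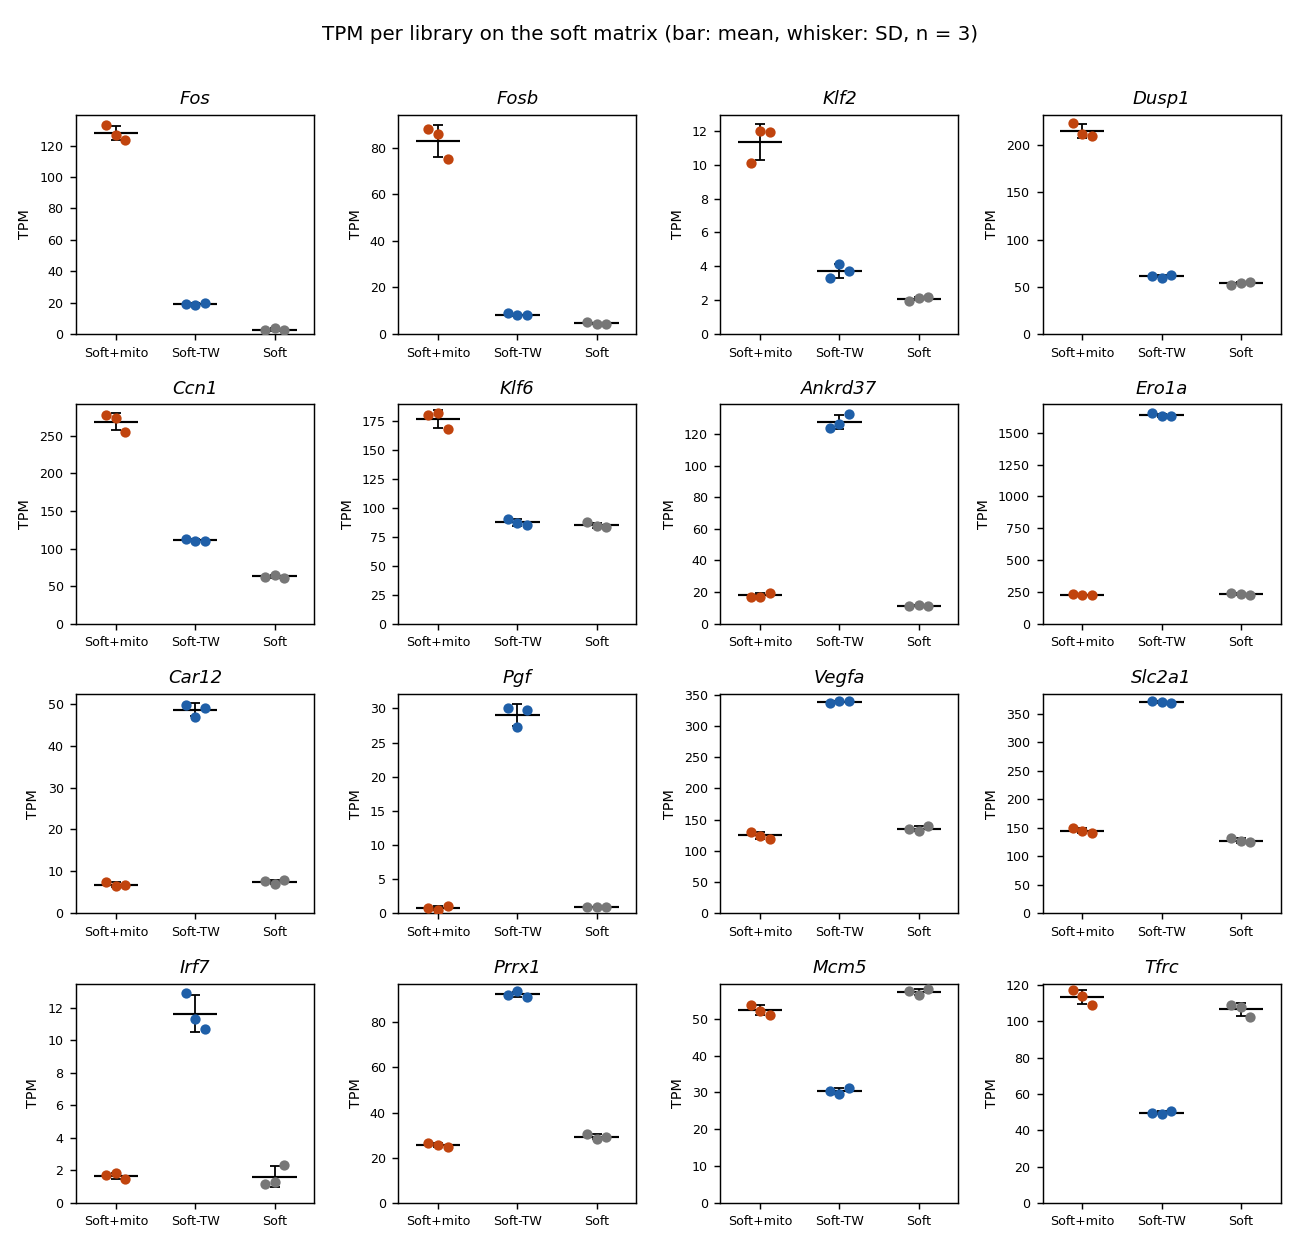
TPM in each library (y axis) for 16 genes, in the Soft+mito, Soft-TW and Soft groups (x axis), where points are libraries, the bar is the mean and the whisker the SD (n = 3). In all 16 genes the Soft+mito and Soft-TW libraries do not overlap, which was a condition for naming most of them. For genes such as Ero1a, Car12 and Vegfa the Soft libraries lie beside Soft+mito.

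Glycolysis followed the same direction. Of 28 tested genes of glycolysis and glucose transport, 20 fell and 2 rose, with a median log2 fold change of -0.49 and 5 down by at least 2-fold. Slc2a1, the glucose carrier GLUT1 (gene 20525, chromosome 4, 119108745 to 119137330), had 149, 144 and 140.2 TPM in Soft+mito, against 372, 371 and 369 TPM in Soft-TW, a log2 fold change of -1.37 ± 0.023, adjusted p = 1.90e-79. Hk2, the hexokinase that binds mitochondria, had 13.96, 13.4 and 13.2 TPM in Soft+mito, against 34.2, 34.7 and 34.3 TPM in Soft-TW, a log2 fold change of -1.37 ± 0.037, adjusted p = 9.46e-59. Eno2, an enolase isoform (gene 13807, chromosome 6, 124760053 to 124769673), had 17.2, 16.2 and 16.9 TPM in Soft+mito, against 83.9, 82.3 and 84.7 TPM in Soft-TW, a log2 fold change of -2.36 ± 0.041, adjusted p = 1.40e-77. All Soft+mito libraries of these 3 genes lay below the lowest Soft-TW library. Pfkp, a phosphofructokinase isoform, had a log2 fold change of -0.92 ± 0.025. Isoforms within 1 step differed: Eno1 fell by 0.08 and Eno3 rose by 0.42, while Aldoc fell by 2.44 and Aldoa by 0.64. Other enzymes of the pathway fell by less, with Gapdh at -0.82, Pgk1 at -0.80, Ldha at -0.45 and Pkm at -0.13. Of the 20 that fell, 19 had a fitted level in Soft nearer to Soft+mito.

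Few genes of the pentose phosphate pathway changed. Of 10 tested 4 rose and 0 fell, beside 29.8% of all genes rising and 30% falling, so the share that rose was near that of all genes. Pgd, which makes NADPH from 6-phosphogluconate, had 402, 378 and 384 TPM in Soft+mito, against 252, 246 and 250.3 TPM in Soft-TW, a log2 fold change of 0.62 ± 0.022, adjusted p = 5.62e-48. G6pdx, the entry enzyme of the pathway, had 388, 401 and 389 TPM in Soft+mito, against 269.8, 269 and 269 TPM in Soft-TW, a log2 fold change of 0.53 ± 0.021, adjusted p = 1.27e-43. Both genes were higher in each Soft+mito library than in any Soft-TW library. Taldo1, the transaldolase, and Prps1, which makes the ribose phosphate donor of nucleotides, had log2 fold changes of 0.35 ± 0.022 and 0.27 ± 0.046. The 6 others did not pass the test, with log2 fold changes between -0.03 and 0.07.

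Secreted growth factors were lower more often than higher in Soft+mito. Of 21 tested ligands of the EGF, FGF, PDGF and VEGF families and related cytokines, 11 fell, 6 rose and 4 did not pass, with a median of -0.31. Beside 30% of all genes falling and 29.8% rising, the share that rose was near that of all genes. Pgf, the placental growth factor that binds the receptor Flt1 (gene 18654, chromosome 12, 85166637 to 85177785), had 0.81, 0.5 and 1.01 TPM in Soft+mito, against 30.1, 27.2 and 29.8 TPM in Soft-TW, a log2 fold change of -5.23 ± 0.14, adjusted p = 1.07e-58. Its counts were 12, 7 and 14 in Soft+mito and 414, 377 and 412 in Soft-TW. Vegfa, the main ligand of endothelial growth, had 131, 124 and 119.6 TPM in Soft+mito, against 337, 339 and 339.6 TPM in Soft-TW, a log2 fold change of -1.43 ± 0.023, adjusted p = 8.33e-81. Areg, which encodes the EGF receptor ligand amphiregulin, had 37.6, 39.6 and 37.3 TPM in Soft+mito, against 158, 162 and 163 TPM in Soft-TW, a log2 fold change of -2.09 ± 0.047, adjusted p = 6.51e-67. For Pgf, Vegfa and Areg the 3 Soft-TW libraries were all above the 3 Soft+mito libraries. Ligands of the same receptor family did not move together, since Btc, for betacellulin, had a log2 fold change of -0.99 ± 0.082 while Hbegf rose by 0.60. Gdf15 rose by 0.53.

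TGF-beta and BMP response genes fell too. Of 17 tested, 12 fell, 2 rose and 3 did not pass, with a median of -0.42 and 6 down by at least 2-fold. Inhba, which encodes the activin subunit beta A, had 5.64, 5.26 and 5.45 TPM in Soft+mito, against 16.6, 16.5 and 17.1 TPM in Soft-TW, a log2 fold change of -1.63 ± 0.050, adjusted p = 7.87e-54, and the ligand Bmp2 had a log2 fold change of -1.34 ± 0.053. The groups did not overlap for Inhba. Tgfbi, a matrix protein induced by TGF-beta, had a log2 fold change of -1.13 ± 0.051. The receptors Tgfbr1 and Tgfbr2 were the 2 that rose, by 0.18 and 0.12, while the ligands Tgfb3, Tgfb2 and Tgfb1 fell by 0.55, 0.50 and 0.18.

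Immediate early genes were higher in Soft+mito. Of 35 tested, 24 rose, 6 fell and 5 did not pass, with a median of 0.38, and all 5 changes of at least 2-fold were increases. Fos, which encodes a subunit of the AP-1 factor (gene 14281, chromosome 12, 85473890 to 85477274), had 133, 127 and 124 TPM in Soft+mito, against 19.3, 18.8 and 19.5 TPM in Soft-TW, a log2 fold change of 2.72 ± 0.043, adjusted p = 1.55e-81. Fosb, another AP-1 subunit (gene 14282, chromosome 7, 19302696 to 19310118), had 87.8, 85.7 and 74.96 TPM in Soft+mito, against 8.85, 8.05 and 8.26 TPM in Soft-TW, a log2 fold change of 3.29 ± 0.047, adjusted p = 6.34e-54. The Soft+mito level was 6.60-fold that of Soft-TW for Fos and 9.81-fold for Fosb, as folds from the fitted log2 fold change. In neither gene did the groups overlap. Klf2, a Krueppel-like factor known for its response to shear flow in endothelium (gene 16598, chromosome 8, 72319062 to 72321654), had 10.1, 11.98 and 11.9 TPM in Soft+mito, against 3.31, 4.16 and 3.73 TPM in Soft-TW, a log2 fold change of 1.59 ± 0.12, adjusted p = 1.05e-22. Ccn1, a secreted matricellular protein that YAP also raises (gene 16007, chromosome 3, 145646971 to 145649985), had 278, 273 and 256 TPM in Soft+mito, against 113, 111 and 109.9 TPM in Soft-TW, a log2 fold change of 1.26 ± 0.026, adjusted p = 2.13e-70. Klf6 had 180.2, 181 and 168 TPM in Soft+mito, against 90.1, 86.7 and 84.8 TPM in Soft-TW, a log2 fold change of 1.00 ± 0.025, adjusted p = 4.10e-49. These 3 genes were also higher in every Soft+mito library.

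Other families within the list were mixed. Egr1 and Egr2 rose by 0.80 and 0.63, and Egr3 fell by 0.86. Jun rose by 0.48 and Jund by 0.24, while Junb and Fosl2 fell by 0.11 and 0.68. Myc rose by 0.12. The inhibitors of differentiation Id1, Id2 and Id3 rose by 0.74, 0.38 and 0.46.

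Soft stood on the other side for these genes. Among the 24 that rose, 3 had a fitted Soft level nearer to Soft+mito (12.5%). Fos had 2.37, 3.77 and 2.48 TPM in Soft and Fosb had 5, 4.27 and 4.44 TPM in Soft, so that Soft-TW lay between Soft+mito and Soft. Klf6 had 87.2, 83.9 and 83.1 TPM in Soft, a range that overlaps that of Soft-TW.

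Feedback inhibitors of MAP kinases were split. Of 16 tested, 2 rose and 9 fell, with a median of -0.27. Dusp1, a phosphatase of p38, JNK and ERK (gene 19252, chromosome 17, 26505591 to 26508472), had 224, 212 and 209 TPM in Soft+mito, against 61.9, 59.9 and 62.6 TPM in Soft-TW, a log2 fold change of 1.79 ± 0.032, adjusted p = 3.98e-77. Dusp6, a phosphatase of ERK, had 162, 158 and 150.5 TPM in Soft+mito, against 85.4, 80.8 and 83.1 TPM in Soft-TW, a log2 fold change of 0.90 ± 0.027, adjusted p = 1.56e-55. Dusp10, which acts on p38 and JNK, had 26.1, 26.1 and 26.5 TPM in Soft+mito, against 44.7, 45.3 and 48.2 TPM in Soft-TW, a log2 fold change of -0.81 ± 0.044, adjusted p = 4.25e-33. The libraries of the groups were apart for the 3 phosphatases, with Dusp10 on the lower side. Spred3 had a log2 fold change of -0.64 ± 0.081, and the Sprouty genes Spry2 and Spry4 fell by 0.57 and 0.44.

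Other genes among the 15 with the largest increases belonged to none of these lists. Trib1, a pseudokinase that recruits the ligase COP1 (gene 211770, chromosome 15, 59648654 to 59657099), had 39.7, 37.5 and 35.7 TPM in Soft+mito, against 17.1, 15.6 and 16.8 TPM in Soft-TW, a log2 fold change of 1.18 ± 0.041, adjusted p = 4.06e-49. Pop1, a subunit of RNase P and RNase MRP, had 10.8, 10.03 and 9.93 TPM in Soft+mito, against 5.45, 4.66 and 5.03 TPM in Soft-TW, a log2 fold change of 1.01 ± 0.085. Neither Trib1 nor Pop1 had overlapping groups, which was a condition for being named here. Atp13a4, a P-type ATPase, and Tlcd2, a membrane protein, had log2 fold changes of 1.18 ± 0.12 and 1.00 ± 0.14.

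Among the 15 largest decreases, Prdm1, the transcriptional repressor Blimp-1 (gene 12142, chromosome 10, 44437174 to 44528558), had 0.38, 0.11 and 0.28 TPM in Soft+mito, against 3.06, 3.49 and 3.39 TPM in Soft-TW, a log2 fold change of -3.73 ± 0.19, adjusted p = 2.05e-33. Stab1, the scavenger receptor stabilin-1, had 1.17, 0.77 and 0.86 TPM in Soft+mito, against 4.96, 5 and 4.89 TPM in Soft-TW, a log2 fold change of -2.44 ± 0.10, adjusted p = 1.22e-43. Cdh17, a cadherin of liver and intestine, had 1.07, 1.09 and 1.35 TPM in Soft+mito, against 5.83, 5.94 and 5.9 TPM in Soft-TW, with a log2 fold change of -2.38 ± 0.14. Prdm1, Stab1 and Cdh17 were low in both groups, and each Soft-TW library was above every Soft+mito library, as the naming rule required. Kctd11, an adaptor of a cullin 3 ubiquitin ligase, had 15.4, 14.7 and 14.8 TPM in Soft+mito, against 73.04, 70.3 and 72.9 TPM in Soft-TW, a log2 fold change of -2.28 ± 0.044, adjusted p = 2.07e-73. Vwa1, a matrix protein of basement membranes, had 2.99, 3.83 and 3.01 TPM in Soft+mito, against 16.2, 12.8 and 17.2 TPM in Soft-TW, with a log2 fold change of -2.23 ± 0.10. C3, the central component of complement, had 10.4, 10.6 and 9.43 TPM in Soft+mito, against 43.1, 42.7 and 42.1 TPM in Soft-TW, a log2 fold change of -2.15 ± 0.043, adjusted p = 5.99e-72.

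**Figure D2:**
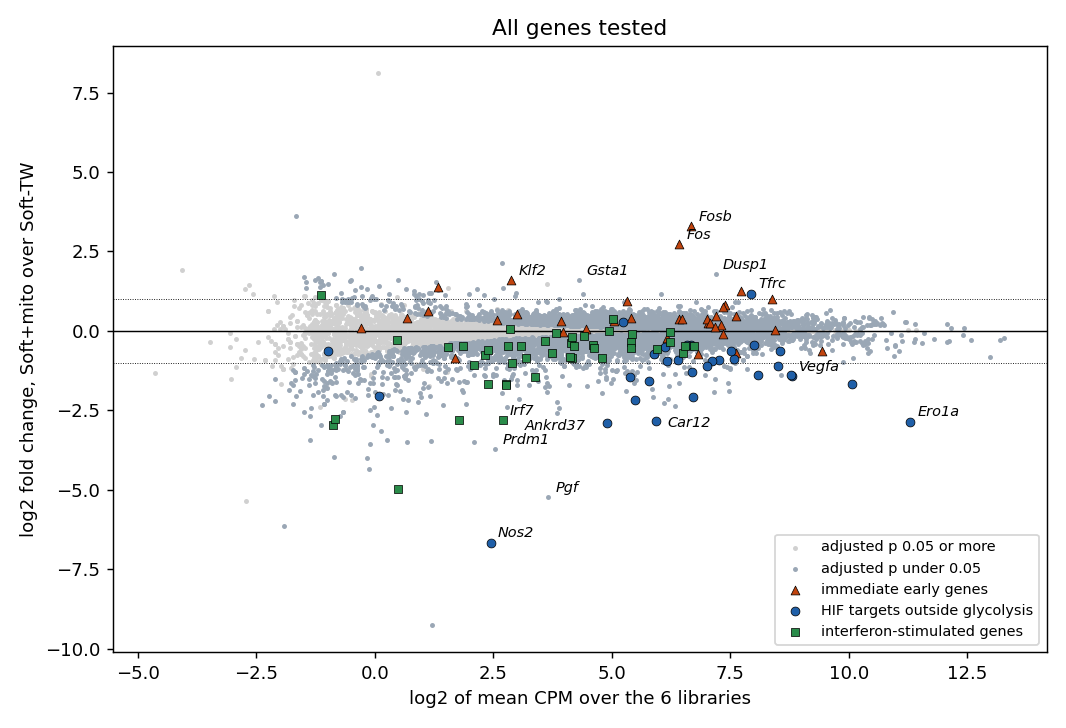
Log2 fold change of Soft+mito over Soft-TW (y axis) against the log2 mean CPM of the 6 libraries (x axis) for all 12245 tested genes, with dotted lines at 2-fold. Points are genes, orange triangles immediate early genes, blue circles HIF targets outside glycolysis, green squares interferon-stimulated genes, and the 62 genes higher by at least 2-fold are fewer than the 366 lower.

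Interferon-stimulated genes were lower in Soft+mito. Of 44 tested, 36 fell, 2 rose and 6 did not pass, beside 30% of all genes falling and 29.8% rising, with a median of -0.52 and 10 down by at least 2-fold. Irf7, which drives the amplification of type I interferon (gene 54123, chromosome 7, 141263183 to 141266499), had 1.69, 1.82 and 1.44 TPM in Soft+mito, against 12.9, 11.3 and 10.7 TPM in Soft-TW, a log2 fold change of -2.81 ± 0.15, adjusted p = 4.19e-34. Xaf1, an interferon-induced adaptor of cell death, had 3.15, 1.71 and 3.28 TPM in Soft+mito, against 8.82, 9.32 and 8.76 TPM in Soft-TW, a log2 fold change of -1.71 ± 0.12, adjusted p = 1.64e-24. Dhx58, the RNA sensor LGP2, had 2.67, 1.96 and 2.58 TPM in Soft+mito, against 7.75, 7.33 and 7.62 TPM in Soft-TW, a log2 fold change of -1.66 ± 0.12, adjusted p = 2.02e-23, and Oasl2, of the oligoadenylate synthetase family, had a log2 fold change of -1.66 ± 0.14. For Irf7, Xaf1 and Dhx58 the highest Soft+mito library was below the lowest Soft-TW library. Of the factors that drive the list, Stat2 fell by 0.85, Irf9 by 0.70 and Irf1 by 0.34. Ifit2 and Rsad2 rose, by 0.39 and 1.12, and Rsad2 had under 5 mean CPM. Of the 36 that fell, 32 had a fitted Soft level nearer to Soft+mito.

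Antigen presentation by MHC class I moved with them. Of 20 tested genes, 14 fell and 1 rose, with a median of -0.27. Psmb8, a subunit of the immunoproteasome, had 36.8, 33.1 and 35.7 TPM in Soft+mito, against 60.9, 62.2 and 64.2 TPM in Soft-TW, a log2 fold change of -0.84 ± 0.057, adjusted p = 7.68e-26. Tap1, a subunit of the peptide transporter of the endoplasmic reticulum, had 10.7, 10.4 and 10.2 TPM in Soft+mito, against 18, 17.7 and 17.7 TPM in Soft-TW, a log2 fold change of -0.78 ± 0.060, adjusted p = 1.91e-22. Both were lower in each Soft+mito library. H2-Q4 and H2-T23, class I genes with close relatives whose reads may be divided, had log2 fold changes of -0.93 ± 0.033 and -0.78 ± 0.065. The classical heavy chains H2-K1 and H2-D1 fell by 0.32 and 0.28, and the light chain B2m by 0.42.

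Of 35 tested chemokine, cytokine and NF-kB genes, 21 fell, 4 rose and 10 did not pass, with a median of -0.29. Tnfaip3, the deubiquitinase A20 that limits NF-kB, had 5.2, 5.15 and 4.26 TPM in Soft+mito, against 11.04, 10.9 and 10.6 TPM in Soft-TW, a log2 fold change of -1.17 ± 0.068, adjusted p = 2.10e-30. Lif, the leukemia inhibitory factor, had 8.36, 8.6 and 8 TPM in Soft+mito, against 19.8, 20.1 and 18.9 TPM in Soft-TW, a log2 fold change of -1.25 ± 0.055, adjusted p = 1.84e-40, and Bcl3, a nuclear partner of NF-kB, had a log2 fold change of -0.86 ± 0.10. Tnfaip3 and Lif had no overlap between the groups. Nfkbia, the inhibitor of NF-kB that NF-kB induces, fell by 0.66, and the subunit genes Rela and Nfkb1 did not pass, at -0.045 and 0.034. Cxcl1 rose by 0.56.

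The summed macrophage markers were lower in Soft+mito, as many of these immune genes were. The summed level of 22 macrophage and myeloid markers ran from 53.1 to 56.8 TPM in Soft+mito and from 89.3 to 92.9 TPM in Soft-TW, beside 42.8 to 43.6 TPM in Soft. Much of the gap between Soft+mito and Soft-TW came from Lyz2, given below, and Cd68. The latter had 7.40 ± 0.138 TPM in Soft+mito and 14.4 ± 0.818 TPM in Soft-TW. Of the 22, 2 were at 0 in all Soft+mito libraries and 1 in all Soft-TW libraries. A mean of at least 1 TPM was reached by 5 of them in Soft+mito and 9 in Soft-TW. The filter on low counts left 12, of which 9 fell and 0 rose, and since a marker can pass that filter through the group where it is high, this count is a description only. Lyz2, the lysozyme of myeloid cells, had 7.69, 10.6 and 9.94 TPM in Soft+mito, against 30.8, 28.98 and 30.8 TPM in Soft-TW, a log2 fold change of -1.69 ± 0.11, adjusted p = 3.68e-25, while Cd14, a receptor for lipopolysaccharide, had 31.4, 31.5 and 34.2 TPM in Soft+mito, against 29.7, 30.1 and 30.8 TPM in Soft-TW, with a log2 fold change of 0.089 ± 0.059, adjusted p = 0.19. For Cd14 the Soft+mito libraries were slightly above the Soft-TW libraries and the difference did not pass the test. The neutrophil markers, of which S100a8 alone could be tested, summed to 24.5 to 27.2 TPM in Soft+mito and 42.4 to 66.7 TPM in Soft-TW. Fewer cells of a type and less RNA per cell cannot be told apart in bulk libraries, and the part of these markers in the immune results was not tested. Nos2, Stab1 and C3, given above, and Mmp9, given with the metalloproteinases, are genes that macrophages can also express.

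Matrix genes were lower more often than higher. Of 35 tested collagens and matrix glycoproteins 22 fell and 7 rose, with a median of -0.36. Fn1, which encodes fibronectin, had 134, 127 and 118 TPM in Soft+mito, against 242, 242 and 252 TPM in Soft-TW, a log2 fold change of -0.98 ± 0.021, adjusted p = 1.02e-53. Vcan, for the proteoglycan versican, had 28.8, 28.2 and 27.6 TPM in Soft+mito, against 48.1, 50.2 and 49.9 TPM in Soft-TW, a log2 fold change of -0.78 ± 0.025, adjusted p = 1.72e-52. Fn1 and Vcan were lower in all 3 Soft+mito libraries than in any Soft-TW library. Col6a3 and Lama5, a collagen VI and a laminin chain, had log2 fold changes of -0.84 ± 0.058 and -0.84 ± 0.093. The basement membrane collagens Col4a1 and Col4a2 rose by 0.17 and 0.25, and Thbs1, for thrombospondin 1, rose by 0.59.

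Of 23 tested metalloproteinases, plasminogen activators and their inhibitors, 12 fell and 6 rose, with a median of -0.23. Mmp9, the gelatinase that is also abundant in osteoclasts and neutrophils (gene 17395, chromosome 2, 164940326 to 164955850), had 2.57, 2.46 and 1.61 TPM in Soft+mito, against 13.2, 12.9 and 12.9 TPM in Soft-TW, a log2 fold change of -2.57 ± 0.095, adjusted p = 6.56e-47. Plat, the tissue plasminogen activator, had 12.8, 11.8 and 10.6 TPM in Soft+mito, against 28.99, 27.7 and 27.8 TPM in Soft-TW, a log2 fold change of -1.28 ± 0.060, adjusted p = 3.98e-38, and the collagenase Mmp13 had a log2 fold change of -1.23 ± 0.093. Plaur, the receptor for urokinase, rose by 0.91. The collagenase activator Mmp14 did not pass, at -0.045.

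Mesenchymal genes were mixed by role. Of 18 tested, 11 fell and 4 rose, with a median of -0.29. Prrx1, a homeobox factor of limb and craniofacial mesenchyme, had 26.3, 25.6 and 24.6 TPM in Soft+mito, against 92.2, 93.7 and 91.2 TPM in Soft-TW, a log2 fold change of -1.90 ± 0.030, adjusted p = 8.07e-82. Pdgfra, a receptor for platelet-derived growth factor, had 32.4, 31.3 and 30.8 TPM in Soft+mito, against 61.7, 62.2 and 62.99 TPM in Soft-TW, a log2 fold change of -0.99 ± 0.027, adjusted p = 3.36e-58. The transition factors Snai1 and Zeb1 fell by 0.83 and 0.32 and Twist1 by 0.13, while Twist2 rose by 0.21. Of 14 fibroblast markers 6 passed the filter on low counts and 5 of these fell, and S100a4, the most abundant of them, rose with a log2 fold change of 0.42 ± 0.050 and set the sum of the list, 12791 to 13118 TPM in Soft+mito and 9555 to 10112 TPM in Soft-TW.

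Integrin genes fell more often than they rose, and by little. Of 19 tested genes 11 fell and 2 rose, with a median of -0.16. Itgav, a partner of the fibronectin and vitronectin receptors, had a log2 fold change of -0.31 ± 0.023, and Itgb1, the common beta 1 chain, did not pass, at -0.019.

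Nuclear genes for mitochondrial proteins rose by small amounts. Of 36 tested subunits of complex I, 25 rose and 2 fell, with a median of 0.16. Of 26 subunits of complexes II to IV with cytochrome c, 18 rose and 3 fell, with a median of 0.14. Of 18 subunits of ATP synthase, 14 rose and 2 fell, with a median of 0.23. Atp5g1, a c-ring subunit, had 319, 314 and 315 TPM in Soft+mito, against 235, 246 and 228 TPM in Soft-TW, a log2 fold change of 0.41 ± 0.038, adjusted p = 3.59e-17. Cycs, which encodes cytochrome c, had 139, 138 and 145 TPM in Soft+mito, against 101, 102 and 102 TPM in Soft-TW, a log2 fold change of 0.45 ± 0.026, adjusted p = 6.41e-31. The libraries of the groups were apart for both, by less than 1.5-fold. Ndufa5, of complex I, had a log2 fold change of 0.38 ± 0.071, and Ndufv3, of the same complex, was 1 of the 2 that fell, at -0.44 ± 0.046. Against a minimum fold of 1.2, 0 genes of complex I were higher and 1 lower, 1 of complexes II to IV was higher and 1 lower, and 2 of ATP synthase were higher and 0 lower. Genes of mitochondrial DNA are not among these and were not analysed, since 0 of the deposited genes matched RefSeq on the mitochondrial chromosome.

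Mitochondrial ribosomal protein genes rose in 48 of 78 tested and fell in 6, with a median of 0.18, and 3 rose past the minimum fold of 1.2. Mrps6 had 175, 165 and 167 TPM in Soft+mito, against 103, 109 and 108 TPM in Soft-TW, a log2 fold change of 0.66 ± 0.048, adjusted p = 1.49e-23, and Mrpl20 had 97.98, 107 and 106 TPM in Soft+mito, against 68.5, 69.8 and 65.8 TPM in Soft-TW, a log2 fold change of 0.60 ± 0.052, adjusted p = 5.49e-19. Of 33 tested import genes 23 rose and 1 fell, with a median of 0.18, and 2 rose past the minimum fold. Timm10, a chaperone of the intermembrane space, had a log2 fold change of 0.46 ± 0.087, and Tomm5, of the outer membrane pore, of 0.41 ± 0.058. Of 16 mitochondrial chaperones and proteases, 8 rose and 4 fell. Hspd1 and Hspe1, the partners of the mitochondrial folding chamber, had log2 fold changes of 0.38 ± 0.020 and 0.40 ± 0.063, and the protease Lonp1 had -0.30 ± 0.026.

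Genes of mitochondrial shape, movement and mitophagy were mixed. Of 31 tested, 13 rose and 4 fell, with a median of 0.076, and past the minimum fold of 1.2 there were 3 higher and 3 lower. Bnip3 and Bnip3l, given above, were 2 of the 4 that fell, and Pink1, the kinase that marks damaged mitochondria, had 27.7, 25.2 and 24.5 TPM in Soft+mito, against 38.97, 36.5 and 38.8 TPM in Soft-TW, a log2 fold change of -0.58 ± 0.047, adjusted p = 1.71e-20. Sqstm1, the autophagy receptor p62, had 1435, 1403 and 1406 TPM in Soft+mito, against 1061, 1057 and 1046 TPM in Soft-TW, a log2 fold change of 0.41 ± 0.018, adjusted p = 6.90e-40. The fission and fusion genes Dnm1l, Opa1 and Mfn1 did not pass, at 0.046, -0.059 and 0.076, and Mfn2 rose by 0.15. The mitochondrial transport adaptors Rhot1 and Trak1 did not pass, at 0.0071 and -0.011.

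Of 32 tested genes of pyruvate entry and the TCA cycle, 21 rose and 7 fell, with a median of 0.11, and past the minimum fold of 1.2 there were 2 higher and 2 lower. Idh3a, a subunit of the isocitrate dehydrogenase of the cycle, had 64.5, 66.2 and 63.1 TPM in Soft+mito, against 51.3, 48.4 and 50.7 TPM in Soft-TW, a log2 fold change of 0.35 ± 0.037, adjusted p = 6.77e-15. Pdhx, of the pyruvate dehydrogenase complex, had a log2 fold change of 0.55 ± 0.061, and Pdk2, a kinase that inhibits that complex, had -0.75 ± 0.10. The carriers of pyruvate Mpc1 and Mpc2 rose by 0.15 and 0.34. Fatty acid oxidation was even, with 10 of 27 tested genes higher and 9 lower, and 1 each past the minimum fold. Slc25a20, the carnitine carrier, had a log2 fold change of 0.41 ± 0.065 and Acsl4, an acyl-CoA synthetase of polyunsaturated fatty acids, of -0.35 ± 0.025.

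DNA replication genes were higher in Soft+mito. Of 41 tested S phase genes, 36 rose and 1 fell, with a median of 0.36, and 21 rose past the minimum fold of 1.2. Mcm5, a subunit of the replicative helicase, had 53.8, 52.2 and 51.1 TPM in Soft+mito, against 30.5, 29.6 and 31.1 TPM in Soft-TW, a log2 fold change of 0.77 ± 0.035, adjusted p = 1.13e-38. Cdc6, which loads that helicase, had 10.9, 9.41 and 9.12 TPM in Soft+mito, against 5.48, 5.62 and 5.47 TPM in Soft-TW, a log2 fold change of 0.81 ± 0.068, adjusted p = 5.12e-20. Mcm5 and Cdc6 were higher in every Soft+mito library. Orc1, of the origin recognition complex, and Mcm10 had log2 fold changes of 0.73 ± 0.080 and 0.65 ± 0.070. Pcna, the sliding clamp, rose by 0.58, and E2f1 did not pass, at -0.076.

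Of 50 tested genes of G2 and M phase, 41 rose and 2 fell, with a median of 0.23, and 7 rose past the minimum fold. Foxm1, the factor that drives mitotic genes, had 45.3, 41.8 and 38.9 TPM in Soft+mito, against 31.3, 31.1 and 31.5 TPM in Soft-TW, a log2 fold change of 0.41 ± 0.036, adjusted p = 2.18e-18. Hmgb2 and Kif23 had log2 fold changes of 0.42 ± 0.049 and 0.39 ± 0.037, and Psrc1, a spindle protein, had -0.49 ± 0.052. The proliferation antigen Mki67 rose by 0.15. Soft lay nearer to Soft+mito for all 36 S phase genes and 38 of the 41 mitotic genes that rose.

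Ribosome biogenesis genes rose while ribosomal protein genes fell slightly. Of 34 tested nucleolar and Myc genes 30 rose and 3 fell, with a median of 0.29, and 15 were higher and 1 lower past the minimum fold of 1.2. Nop56 and Nop58, of the box C/D particles that methylate ribosomal RNA, had log2 fold changes of 0.58 ± 0.025 and 0.61 ± 0.030, and Nop56 had 231, 231 and 234 TPM in Soft+mito, against 152, 144 and 149 TPM in Soft-TW. Dkc1, the pseudouridine synthase dyskerin, had 50.4, 47.1 and 48.9 TPM in Soft+mito, against 32, 30.3 and 30.99 TPM in Soft-TW, a log2 fold change of 0.60 ± 0.041, adjusted p = 1.04e-25. Of 83 tested cytosolic ribosomal protein genes 44 fell and 5 rose, with a median of -0.10, and 3 were lower and 1 higher past that minimum. Rpl3 had 1664, 1693 and 1731 TPM in Soft+mito, against 2099, 2082 and 2092 TPM in Soft-TW, a log2 fold change of -0.31 ± 0.019, adjusted p = 2.98e-29. Every Soft+mito library of Rpl3 was below the Soft-TW libraries. Many ribosomal protein genes have processed copies that could share reads, so single values are less certain.

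NRF2 targets and glutathione enzymes were mostly higher. Of 32 tested, 25 rose and 4 fell, with a median of 0.20. Gsta1 and Gsta2, glutathione transferases of the alpha class whose near-identical sequences may divide reads, had 84.3 ± 5.00 and 26.4 ± 2.75 TPM in Soft+mito and 27.7 ± 3.91 and 10.0 ± 2.25 TPM in Soft-TW. Osgin1, an oxidative stress growth inhibitor (gene 71839, chromosome 8, 119425882 to 119446257), had 27.1, 27.9 and 26 TPM in Soft+mito, against 12.7, 11.1 and 11.7 TPM in Soft-TW, a log2 fold change of 1.18 ± 0.068, adjusted p = 5.34e-31. Srxn1, Nqo1 and Slc7a11, classic targets of NRF2, rose by 0.67, 0.55 and 0.56. Hmox1, the heme oxygenase that NRF2 also raises, went the other way with 777, 772 and 769 TPM in Soft+mito, against 1168, 1172 and 1169 TPM in Soft-TW, a log2 fold change of -0.61 ± 0.019, adjusted p = 3.92e-53. Mt2, a metallothionein that binds zinc and copper, had 913, 873 and 909 TPM in Soft+mito, against 2031, 2122 and 2003 TPM in Soft-TW, a log2 fold change of -1.19 ± 0.043, adjusted p = 1.38e-13.

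Iron genes did not move as a group. Of 15 tested, 6 rose and 6 fell. The rise of Tfrc is given above, Aco1, the iron regulatory protein IRP1, had a log2 fold change of 0.32 ± 0.041, and the mitochondrial iron carrier Slc25a37 had -0.41 ± 0.023. The ferritin chains Fth1 and Ftl1 rose by 0.10 and 0.21.

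Cytosolic chaperones rose in 15 of 22 tested genes and fell in 3, with a median of 0.27. Hsph1 and Hsp90aa1 had log2 fold changes of 0.66 ± 0.024 and 0.59 ± 0.018, and Hsp90aa1 had 1402, 1435 and 1412 TPM in Soft+mito, against 944, 919 and 935 TPM in Soft-TW. Cryab, a small heat shock protein of the lens and muscle, fell instead, with 149, 146 and 146 TPM in Soft+mito, against 593, 592 and 582 TPM in Soft-TW, a log2 fold change of -1.91 ± 0.032, adjusted p = 2.05e-79. Of 26 genes of the unfolded protein response, 8 rose and 12 fell. Hspa5, the chaperone BiP, had 1015, 1014 and 1014 TPM in Soft+mito, against 1477, 1422 and 1439 TPM in Soft-TW, a log2 fold change of -0.52 ± 0.018, adjusted p = 4.63e-50, and Xbp1 had a log2 fold change of -0.50 ± 0.035.

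Genes under Atf4 were split. Of 37 tested, 21 rose and 12 fell, with a median of 0.11, and past the minimum fold of 1.2 there were 6 higher and 7 lower. Ddit3, the factor CHOP, had 127, 123 and 120.4 TPM in Soft+mito, against 218, 214 and 222 TPM in Soft-TW, a log2 fold change of -0.89 ± 0.041, adjusted p = 4.91e-38. Trib3, a pseudokinase induced by CHOP, had a log2 fold change of -0.73 ± 0.034, and Ddit4, an inhibitor of mTORC1 that HIF and p53 also raise, had -0.91 ± 0.038. Aldh1l2, the mitochondrial formyltetrahydrofolate dehydrogenase, had 19.2, 18.4 and 18.5 TPM in Soft+mito, against 51.7, 53.1 and 51.4 TPM in Soft-TW, a log2 fold change of -1.5 ± 0.029, adjusted p = 1.59e-73. Atf4 itself rose by 0.18 and the serine synthesis enzyme Phgdh by 0.42.

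Sterol genes rose in 12 of 24 and fell in 5, with a median of 0.067. Idi1, which makes an isoprenoid building block, had 200.4, 199.7 and 199 TPM in Soft+mito, against 134, 133 and 131 TPM in Soft-TW, a log2 fold change of 0.57 ± 0.024, adjusted p = 1.35e-42. Of 17 genes of fatty acid synthesis 10 rose and 4 fell, and 4 were higher and 3 lower past the minimum fold of 1.2. Elovl6, an elongase, had a log2 fold change of 0.76 ± 0.031, Fasn rose by 0.41, and Lpin1, a phosphatidic acid phosphatase, had -0.75 ± 0.040. Of 7 genes of lipid efflux and the LXR factors 2 rose and 4 fell. Plin2, a coat protein of lipid droplets, had a log2 fold change of 0.27 ± 0.020, and Abca1, the cholesterol exporter, had -0.23 ± 0.085.

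Genes of the DDR2, FAK, TIAM1 and small GTPase list changed by small amounts, apart from Tiam1, which had few counts. Of 32 tested 10 rose and 13 fell, with a median of 0.024, and past the minimum fold of 1.2 there were 3 higher and 1 lower. Ddr2, a collagen receptor tyrosine kinase (gene 18214, chromosome 1, 169972307 to 170110836), had 29.3, 27.6 and 25.9 TPM in Soft+mito, against 29.7, 29.7 and 30.02 TPM in Soft-TW, a log2 fold change of -0.13 ± 0.028, adjusted p = 5.21e-05, beside 43.5, 40.6 and 42.2 TPM in Soft. The Soft+mito libraries lay just below the Soft-TW libraries, and the Soft libraries above both. Ptk2, which encodes focal adhesion kinase, had 59.1, 62.05 and 58.4 TPM in Soft+mito, against 65.2, 61.96 and 63.2 TPM in Soft-TW. Its log2 fold change was -0.093 ± 0.027, and its groups overlapped in TPM but not in CPM. Rhoa and Rac1, small GTPases of the actin skeleton, had log2 fold changes of -0.14 ± 0.020 and 0.17 ± 0.021. Tiam1, an activator of Rac1, had 1, 4 and 4 counts in Soft+mito and 6, 9 and 7 in Soft-TW, a log2 fold change of -1.31 ± 0.54, adjusted p = 0.0298. That call was lost under DESeq2 (adjusted p = 0.086), under the minimum fold of 1.2 (0.106), without Soft+mito replicate 1 (0.168) and without Soft-TW replicate 2 (0.115). Limk1, a kinase of cofilin, had 11.2, 11.7 and 10.6 TPM in Soft+mito, against 15.4, 15.9 and 17.4 TPM in Soft-TW, a log2 fold change of -0.58 ± 0.058, adjusted p = 5.45e-16, and Arhgap1 and Rhob had log2 fold changes of 0.40 ± 0.032 and 0.39 ± 0.035.

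Genes for routes of uptake and degradation moved in both directions. Of 37 tested genes of endocytosis, caveolae and macropinocytosis 15 rose and 9 fell, of 43 of the lysosome and proton pump 20 rose and 11 fell, and of 32 of autophagy 10 rose and 7 fell. Beside 29.8% of all genes rising and 30% falling, rises were more frequent in the endocytosis and lysosome lists and near that share for autophagy. Falls were somewhat less frequent than among all genes in each list. Past the minimum fold of 1.2 the balance turned for endocytosis, with 1 higher and 5 lower, while 6 lysosomal genes were higher and 5 lower and 1 autophagy gene was higher and 2 lower. Dnm1, a dynamin, had 25.6, 25.4 and 21.9 TPM in Soft+mito, against 39.3, 37.4 and 39.4 TPM in Soft-TW, a log2 fold change of -0.69 ± 0.039, adjusted p = 2.40e-31, and the endocytic receptor Lrp1 had a log2 fold change of -0.54 ± 0.023. Of caveolar genes, Cav1 rose by 0.13 and Cavin1 by 0.29, while Cavin4 fell by 1.21. Of the lysosomal genes, Gusb, a glucuronidase, had a log2 fold change of 0.56 ± 0.036. Proton pump subunits Atp6v0a1 and Atp6v1h had 0.52 ± 0.040 and 0.49 ± 0.033. Atg9b and Wipi1, of autophagosome formation, had -0.47 ± 0.035 and -0.42 ± 0.045.

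Of 26 tested YAP and TAZ targets and partners 7 rose and 9 fell, with a median of -0.032, which was 0.0166 without Soft+mito replicate 3 and 0.0153 without Soft-TW replicate 2. Ccn1, given above, rose, Ankrd1, another classic target, did not pass at 0.10, and Fstl1, a secreted glycoprotein, had a log2 fold change of -0.72 ± 0.049. Of 26 genes of Srf and contractile actin 11 rose and 5 fell. Srf itself and Actb, for beta actin, had log2 fold changes of 0.42 ± 0.048 and 0.32 ± 0.018, and the tropomyosins Tpm4 and Tpm2 had -0.38 ± 0.023 and -0.32 ± 0.035. Of 23 p53 targets 11 rose and 10 fell. Bbc3, the death inducer PUMA, had a log2 fold change of -0.65 ± 0.10, Plk3 had 0.48 ± 0.041, and Cdkn1a, the cell cycle inhibitor p21, fell by 0.10.

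**Figure D3:**
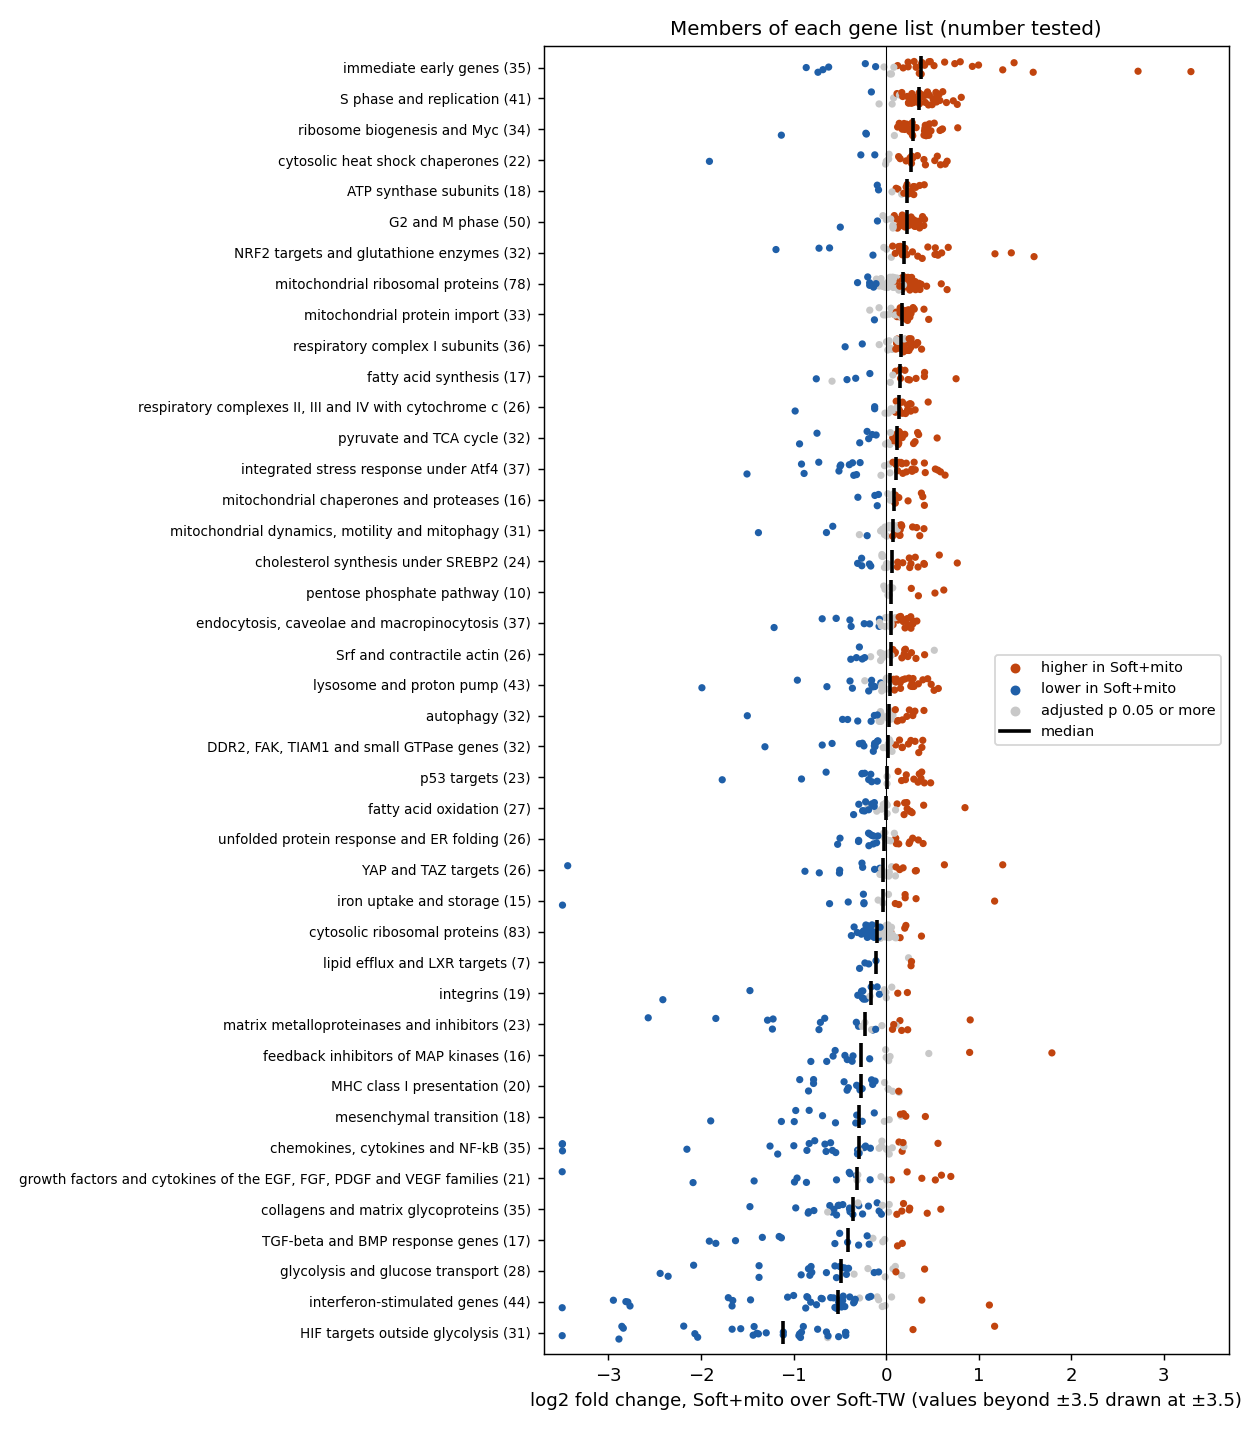
Log2 fold change of Soft+mito over Soft-TW (x axis) for every tested member of each gene list other than the marker lists (y axis, number tested in parentheses), in orange where higher, blue where lower and grey where the adjusted p was 0.05 or more, with the list's median as a black bar. The medians of the lists drawn run from 0.38 for immediate early genes to -1.11 for HIF targets outside glycolysis, and lists of mitochondrial genes lie close to 0.

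On the stiff matrix, Stiff+mito against Stiff-TW changed 7590 genes (62%). The difference between the matrices in the effect of mito over TW was tested as an interaction, soft minus stiff. A total of 3830 genes (31.3%) differed, 1808 more positive on soft and 2022 more negative, and 169 differed by at least 2-fold. For 491 of them the direction was opposite and called on each matrix. HIF targets outside glycolysis had a median of -1.11 on soft and -1.19 on stiff, and 19 of 31 members differed between the matrices, beside 31.3% of all genes, so the medians were alike while many single genes were not. Interferon-stimulated genes had medians of -0.52 on soft and -0.62 on stiff, with 13 of 44 differing.

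Other lists had medians further apart. The median of the G2 and M phase genes was 0.23 on soft and -0.15 on stiff, and 48 of 50 members differed between the matrices. Sterol genes had a median of 0.067 on soft and -0.62 on stiff, with 23 of 24 differing. Genes under Atf4 had a median of 0.11 on soft and 0.53 on stiff, with 34 of 37 differing. S phase genes had medians of 0.36 on soft and 0.16 on stiff with 20 of 41 differing, and ribosome biogenesis genes had 0.29 on soft and 0.54 on stiff with 24 of 34 differing.

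**Figure D4:**
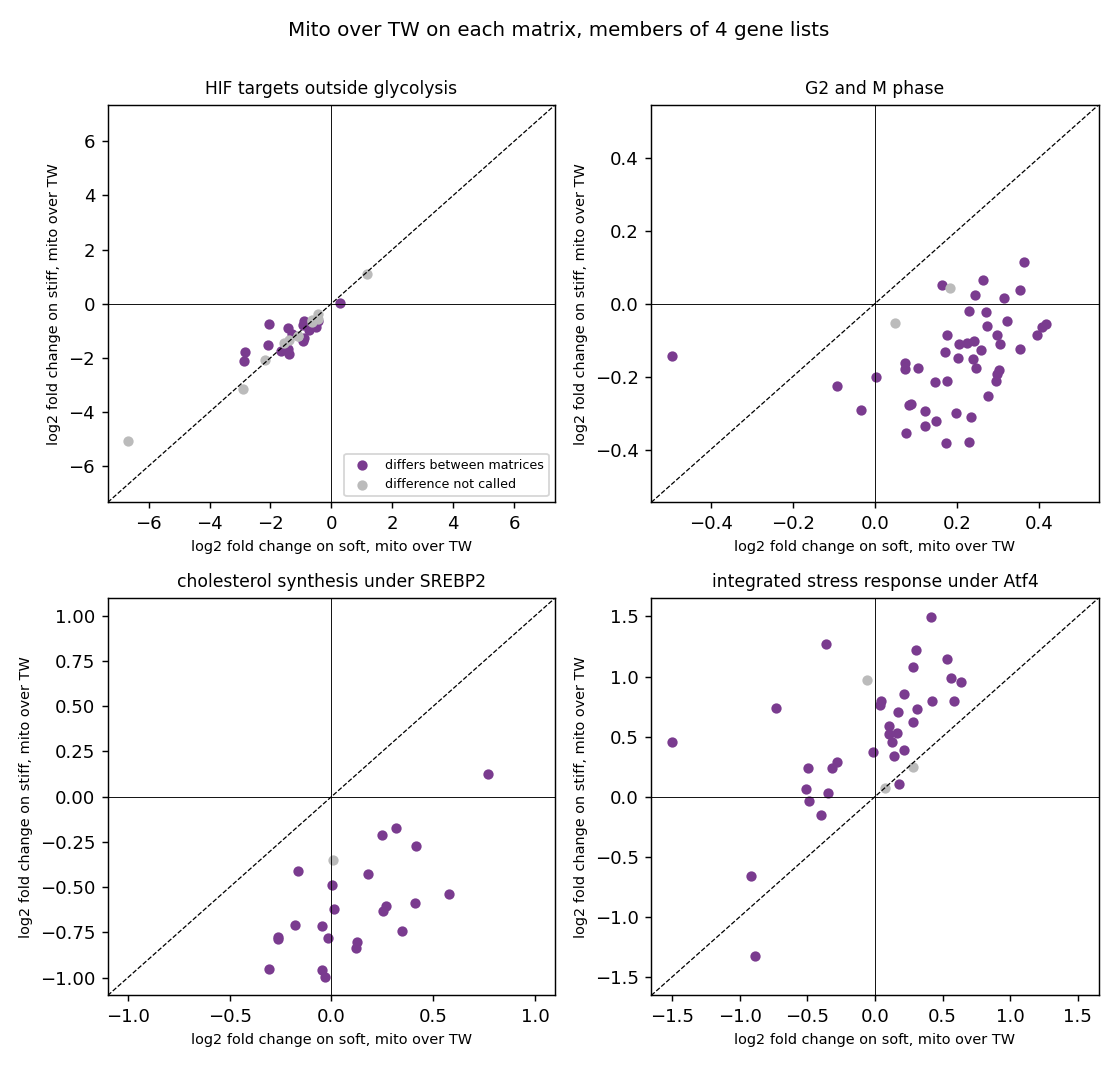
Log2 fold change of mito over TW on stiff (y axis) against that on soft (x axis) for members of 4 lists, where points are genes, purple where the difference between the matrices passed an adjusted p under 0.05, and the dashed line marks equal change. HIF targets lie on both sides of the line or along it, with medians of -1.11 on soft and -1.19 on stiff although 19 of 31 members differ between the matrices, the sterol and mitotic genes lie mostly below it, and the genes under Atf4 lie mostly above it.

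Some named genes differed between the matrices by more than these lists. Tenm4, which encodes a transmembrane teneurin (gene 23966, chromosome 7, 96171244 to 96911093), had 0.58, 0.7 and 0.66 TPM in Soft+mito, against 2.03, 1.78 and 1.98 TPM in Soft-TW, a log2 fold change of -1.57 ± 0.10. On stiff it had 7.56, 7.74 and 7.33 TPM in Stiff+mito, against 1.77, 1.5 and 1.69 TPM in Stiff-TW, so mito lay below TW on soft and above it on stiff. The difference was -3.67 ± 0.11, adjusted p = 2.45e-53. Cdsn, which encodes the adhesion protein corneodesmosin, had 12.2, 10.04 and 10.3 TPM in Soft+mito, against 40.7, 38.1 and 41.6 TPM in Soft-TW, and 76.7, 74.3 and 79.03 TPM in Stiff+mito, against 41.5, 40.4 and 41.2 TPM in Stiff-TW, a difference of -2.76 ± 0.066, adjusted p = 4.91e-63. Angptl6, an angiopoietin-like protein, had 6.52, 6.46 and 6.22 TPM in Soft+mito, against 19.6, 21.1 and 22.7 TPM in Soft-TW, and 26.2, 25.98 and 24.3 TPM in Stiff+mito, against 21, 24.7 and 22.8 TPM in Stiff-TW, a difference of -1.86 ± 0.12, adjusted p = 1.48e-27. For Angptl6 the soft groups did not overlap, and the Stiff+mito and Stiff-TW libraries did. Car6, a secreted carbonic anhydrase, had 7.24, 5.89 and 7.41 TPM in Soft+mito, against 16.4, 13.6 and 15.6 TPM in Soft-TW, and 22.9, 24.03 and 22.4 TPM in Stiff+mito, against 12.6, 10.9 and 11.5 TPM in Stiff-TW, a difference of -2.10 ± 0.15, adjusted p = 1.81e-24.

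Aldh1l2 had 87.5, 86.3 and 87.7 TPM in Stiff+mito, against 60.1, 59.2 and 59.8 TPM in Stiff-TW, and its difference between the matrices was -1.96 ± 0.037, adjusted p = 5.01e-73. Among genes with a more positive effect on soft, Gadd45b, a stress-induced gene, had 73.4, 74.04 and 74.7 TPM in Soft+mito, against 44.7, 45.6 and 51.99 TPM in Soft-TW, and 14.1, 17.8 and 13.9 TPM in Stiff+mito, against 32.5, 33.6 and 33.2 TPM in Stiff-TW, a difference of 1.80 ± 0.10, adjusted p = 1.29e-30. Sox2, a factor of stem and progenitor cells, had 17.8, 17.8 and 18.9 TPM in Soft+mito, against 23.4, 23.1 and 23.4 TPM in Soft-TW, and 6.89, 8.36 and 6.84 TPM in Stiff+mito, against 21.5, 22.02 and 22.9 TPM in Stiff-TW, a difference of 1.26 ± 0.095, adjusted p = 5.80e-22. Sprr1a, of the cornified envelope, had 94.6, 96.3 and 88.1 TPM in Soft+mito, against 114, 113 and 109.6 TPM in Soft-TW, and 25.8, 24.1 and 26.1 TPM in Stiff+mito, against 99.1, 105 and 102 TPM in Stiff-TW, a difference of 1.80 ± 0.095, adjusted p = 4.95e-33. In these 3 genes the mean TPM was lowest in Stiff+mito among the mito and TW groups.

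Fos and Fosb were higher with mito on both matrices, at different levels. Fos had 241, 246 and 241 TPM in Stiff+mito, against 95.8, 101 and 98.8 TPM in Stiff-TW, a smaller log2 fold change (1.26) than on soft, and the difference was 1.47 ± 0.055, adjusted p = 3.42e-45. Fosb had 163, 157 and 153 TPM in Stiff+mito, against 54.8, 54.2 and 53.3 TPM in Stiff-TW, a log2 fold change of 1.5 and a difference of 1.79 ± 0.062, adjusted p = 5.35e-33. Ddr2 had 72.5, 69.5 and 69.7 TPM in Stiff+mito, against 45.98, 47.8 and 46.8 TPM in Stiff-TW and differed between the matrices by -0.68 ± 0.037, adjusted p = 2.83e-32.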

How the data were processed

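Poly(A) RNA of 18 libraries (6 groups of 3) was made strand-specific with dUTP and sequenced as paired ends, per the labels' protocols. The authors deposited estimated counts (expected counts) per gene, 10.9% of them not whole at a tolerance of 0.001, and TPM. The build is mm10 per the submitters' processing notes, with the annotation, aligner and counting tool not given in the sources used here. A set of 44 columns of averages was not used. Of 18397 genes, 18257 (99.2%) matched RefSeq (GRCm38.p6), the source of positions and promoters.

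Counts were rounded, filtered with filterByExpr by group (12245 genes kept), scaled by TMM and fitted in all 18 libraries with edgeR 4.0.16 in R 4.3.3 (glmQLFit, robust, common biological coefficient of variation 0.0175). Two-sided quasi-likelihood F-tests were adjusted by Benjamini-Hochberg over the genes tested. A standard error is the log2 fold change over the square root of F. The minimum fold of 1.2 used glmTreat, and other alternatives used DESeq2 1.42.0, other scalings, filters and sets of libraries, and a replicate term.

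Up to 15 genes were named per direction by fold change (adjusted p under 0.05, no overlap between the groups, and 5 CPM or more on average in the 6 libraries), up to 5 per direction for the interaction, up to 4 changed members per list, and always Ddr2, Ptk2, Tiam1, Rhoa, Rac1 and 9 identity markers. Predicted genes were passed over, and some genes that the rule names are not reported here. Other list members were chosen after their values were seen. The comparison, the 52 gene lists (10 of them markers) and the tests were chosen with earlier results of these data known. Of the marker lists not described in the results, the tested genes were 4 epithelial (2 higher), 4 osteoblast (2 lower), 5 osteoclast (2 lower), 3 hepatocyte, 1 melanocyte, 1 lymphocyte (higher) and 0 endothelial.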

Additional observations from a re-analysis of the deposited data

Results flagged for a closer look

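The 14 named genes below differed between the soft and the stiff matrix in the effect of mito over TW. They come from the genes named for the interaction or in every case. Each was listed because it passed an adjusted p under 0.05 for that difference, so passing is not a separate result. Each value is the interaction on the log2 scale, soft minus stiff, in which a negative value means a more negative effect on soft.

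Tenm4 had -3.67 ± 0.11, adjusted p = 2.45e-53, Cdsn had -2.76 ± 0.066, adjusted p = 4.91e-63, Car6 had -2.10 ± 0.15, adjusted p = 1.81e-24, Aldh1l2 had -1.96 ± 0.037, adjusted p = 5.01e-73 and Angptl6 had -1.86 ± 0.12, adjusted p = 1.48e-27. These 5 genes fell in Soft+mito against Soft-TW, and on stiff their log2 fold changes of mito over TW were 2.10, 0.86, 0.94, 0.46 and 0.11 in the same order. Sprr1a had 1.80 ± 0.095, adjusted p = 4.95e-33, Gadd45b had 1.80 ± 0.10, adjusted p = 1.29e-30 and Sox2 had 1.26 ± 0.095, adjusted p = 5.80e-22. Fosb had 1.79 ± 0.062, adjusted p = 5.35e-33 and Fos had 1.47 ± 0.055, adjusted p = 3.42e-45, with an increase on both matrices.

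Of the genes named in every case, Ddr2 had -0.68 ± 0.037, adjusted p = 2.83e-32, Rac1 had 0.22 ± 0.029, adjusted p = 3.12e-10 and Rhoa had 0.12 ± 0.029, adjusted p = 4.52e-04. Ptk2, also named in every case, did not pass and is not in the list, at 0.073 ± 0.038, adjusted p = 0.143. Tiam1 had -3.47 ± 0.67, adjusted p = 1.17e-05, but it had at most 9 counts in a Soft+mito or Soft-TW library, so the size of its difference is uncertain.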

How the results depend on the processing

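Against a minimum fold of 1.2, 2140 genes changed, 749 higher and 1391 lower in Soft+mito, in place of 7330, 3653 and 3677. Without the filter on low counts 118 genes, in place of 62, were higher by at least 2-fold, since more genes with few counts were tested. The other alternatives kept each total within 1.5 times: DESeq2 called 6259 genes and 2683 interactions, the 6 libraries alone 7263, and library totals 7450, of which 55.1% were higher in place of 49.8%, with a median over all genes of 0.0269. Leaving out 1 library at a time gave 6879 to 7029 changed genes, 3441 to 3621 higher, 3258 to 3499 lower, 72 to 88 higher and 363 to 382 lower by at least 2-fold, and 3484 to 3757 interactions, where the group with 2 libraries is assumed to vary like the others.

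Replicate numbers showed no sign of pairing: the deviations of same-numbered Soft+mito and Soft-TW libraries had correlations of -0.0642, -0.101 and -0.0417 across genes. With a spread this small (common biological coefficient of variation 0.0175), low correlations do not settle whether libraries were paired. With the replicate block 7376 genes changed and 3929 interactions were called.

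No named gene changed direction under any alternative run, and 34 of 197 lost their call under at least 1, most of them under the minimum fold. Apart from Tiam1, the calls lost elsewhere were those of Abca1 (DESeq2, adjusted p = 0.0954, and without Soft+mito replicate 3 or Soft-TW replicate 1), Itga1 (DESeq2, 0.0758, and without Soft-TW replicate 2) and Itga7 (without Soft+mito replicate 2). The rises of mitochondrial chaperones were 5 in place of 8 without Soft+mito replicate 2, the rises of metalloproteinases 3 in place of 6 without Soft-TW replicate 3, and the falls of mitochondrial ribosomal proteins 2 in place of 6 under DESeq2 and 3 without Soft+mito replicate 2 or Soft-TW replicate 2. Under DESeq2 the falls were also 8 in place of 13 among the DDR2, FAK, TIAM1 and small GTPase genes, 4 in place of 7 for autophagy and 2 in place of 4 for lipid efflux. The rises of cytosolic ribosomal proteins were 8 in place of 5 by library totals and 3 without Soft+mito replicate 3 or Soft-TW replicate 1. The median of fatty acid oxidation, -0.0032, ran from 0.0054 to 0.0239 where it changed sign, and that of the unfolded protein response was 0.0056 by library totals. The cause was not tested.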
